A study of Canis lupus familiaris with 12 samples.

Results

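ATF4 and DDIT3, the genes of a pair of stress transcription factors, were followed in 2 canine hemangiosarcoma cell lines cultured with or without glucose. They were picked out by the Ensembl identifiers given for them with the RT-qPCR primers of the study, ENSCAFG00000001324 for ATF4 and ENSCAFG00000030112 for DDIT3, and are 2 of the 30951 genes listed in the deposited tables. Hemangiosarcoma is a malignant tumour of endothelial character that is common in dogs. HU-HSA-2, the first line, and HU-HSA-3, the other, each came from the tumour of a single dog, so a difference between lines and a difference between dogs cannot be told apart. Each line was kept for 48 h either in glucose-free medium (0 mM) or in medium with 25 mM glucose, with serum in both, and mRNA was sequenced from 3 libraries per condition, 12 libraries in 4 groups. The labels name no drug, gene deletion or transgene for any group.

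ATF4 is a basic leucine zipper activator at the centre of the integrated stress response. When kinases that sense amino acid shortage, unfolded protein or other stress phosphorylate eIF2α, most translation slows while ATF4 mRNA is translated more, and ATF4 then raises genes of amino acid synthesis, amino acid transport and redox balance. DDIT3 encodes CHOP, a C/EBP-family factor that lies downstream of ATF4 in that response and is known for promoting cell death under lasting endoplasmic reticulum stress. The libraries measure mRNA, so the control of ATF4 at translation is outside these data. A bulk library also cannot tell more mRNA in every cell from more cells that express the gene.

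Library totals ran from 10406166 to 13405159 counts. None of the 12 replicate pairs were identical, and their counts differed by more than sampling noise in every pair (chi-square per degree of freedom 2.29 to 17.4). The endothelial genes PECAM1 and KDR were expressed in both lines, with mean PECAM1 at 25 mM of 1116 TPM (a level scaled for transcript length and library total) in HU-HSA-2, against 432 TPM in HU-HSA-3, and mean KDR of 74.3 and 43.6 TPM. VWF, another endothelial marker, was close to 0 in both lines at 0.477 and 0.170 TPM. One library stood apart: in replicate 1 of HU-HSA-3 at 0 mM, counts scaled to the library total alone ran higher relative to TPM than elsewhere, with a ratio of 1.14 for ATF4 against 1.04 to 1.10 in the other libraries and of 0.589 for DDIT3 against 0.520 to 0.573.

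ATF4 mRNA was abundant in all 4 groups, and by TPM HU-HSA-3 without glucose stood above the other 3. In HU-HSA-2 at 25 mM the 3 libraries held 582, 628 and 607 TPM, a mean of 606 ± 22.8 (SD, n = 3). In HU-HSA-2 at 0 mM they held 515, 538 and 483 TPM (512 ± 27.8). In HU-HSA-3 at 25 mM they held 575, 537 and 570 TPM (561 ± 20.8). These 9 libraries therefore lay close together, with HU-HSA-3 at 25 mM overlapping HU-HSA-2 at 0 mM and lying just under HU-HSA-2 at 25 mM. HU-HSA-3 at 0 mM stood apart with 1150, 1148 and 1139 TPM (1146 ± 5.92), above each of the other libraries. ATF4 was already among the abundant mRNAs in the 9 lower libraries, where it ranked between 205th and 259th from the top among the genes with a TPM above 0. In the 3 libraries of HU-HSA-3 at 0 mM its rank moved up to between 137th and 144th.

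DDIT3 was expressed at a much lower level and differed more between groups. Its levels were 39.3, 43.6 and 40.6 TPM in HU-HSA-2 at 25 mM (41.2 ± 2.19, SD, n = 3) and 39.2, 35.9 and 40.1 TPM in HU-HSA-3 at 25 mM (38.4 ± 2.20). The 6 libraries with glucose thus overlapped between lines. In HU-HSA-2 at 0 mM the levels were 55.2, 58.3 and 52.5 TPM (55.3 ± 2.89), above all 6 libraries with glucose. In HU-HSA-3 at 0 mM they were 256, 287 and 257 TPM (267 ± 17.6), far above the other 9 libraries. DDIT3 thus passed from rank 3659 to 3994 in HU-HSA-3 with glucose to rank 494 to 562 without it, whereas in HU-HSA-2 it passed from 3715 to 3901 to 2840 to 2964.

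**Figure D1:**
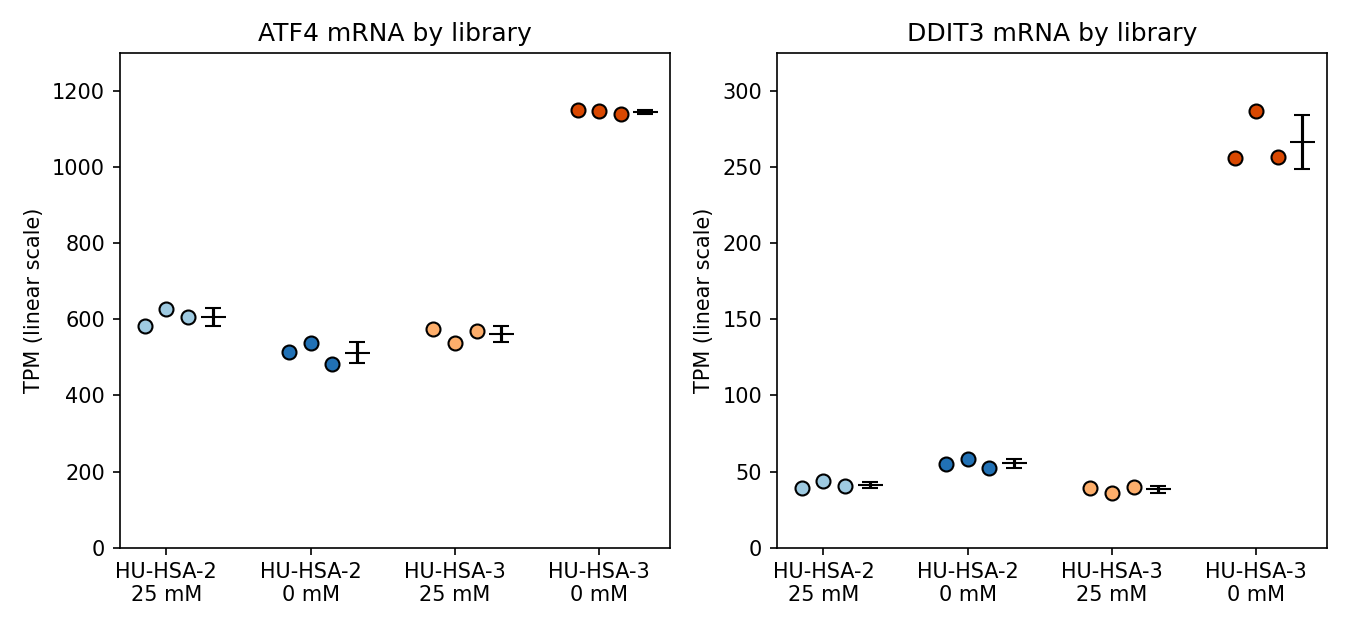
Levels of ATF4 and DDIT3 mRNA in TPM on linear axes, with 1 point per library and the mean ± SD of 3 libraries beside each of the 4 groups. For both genes the 3 libraries of HU-HSA-3 at 0 mM lie above the other 9 libraries, at means of 1146 TPM for ATF4 and 267 TPM for DDIT3.

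Both genes were measured with a small spread. The lowest rounded expected count was 6019 for ATF4 and 199 for DDIT3, which corresponds to a counting error of at most 1.29% and 7.09% of the value, and this error covers counting alone. Within groups, the pooled SD of log2 normalised CPM (counts scaled to a library total that TMM had adjusted) was 0.0645 for ATF4 and 0.0872 for DDIT3, against a median of 0.146 over 12233 genes. ATF4 and DDIT3 were thus steadier between replicates than most genes, with a smaller SD in 8.04% and 19.6% of genes respectively. The comparison was with genes of every level, not with genes of like abundance. The steadiness of ATF4 in HU-HSA-3 at 0 mM depended on the unit: the 3 libraries ranged from 1139 to 1150 by TPM, but from 1279 to 1468 by normalised CPM, where replicate 1 was the highest.

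At 25 mM glucose, the lines could not be separated by either gene. HU-HSA-3 relative to HU-HSA-2 showed a log2 fold change of 0.06 for ATF4 (SE 0.06; 95% interval -0.07 to 0.19; adjusted p = 0.383, Benjamini-Hochberg adjusted over all genes in edgeR's quasi-likelihood test). For DDIT3 the log2 fold change was 0.01 (SE 0.09; 95% interval -0.18 to 0.21; adjusted p = 0.896 in the same test). Both intervals include 0, and neither reaches beyond -0.18 or 0.21 on the log2 scale. Most genes did differ: 74.3% of the 12233 genes tested passed the threshold of 0.05 in this comparison, while 0 of the 2 genes did so, and their unadjusted p-values were 0.342 for ATF4 and 0.881 for DDIT3. Only 5.41% of genes had a smaller absolute difference between lines than ATF4, and only 1.33% had a smaller one than DDIT3. DESeq2 gave log2 fold changes of 0.05 and 0.002 with adjusted p-values of 0.499 and 0.988, and limma on log2(TPM + 1) gave -0.11 and -0.10 with adjusted p-values of 0.0701 and 0.229, so these tools called 0 of the 2 genes as well.

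The sign of that small difference followed the scaling. Mean normalised CPM placed HU-HSA-3 slightly above HU-HSA-2 at 25 mM for both genes (624 ± 26.8 against 598 ± 13.3 for ATF4 and 21.4 ± 1.53 against 21.2 ± 0.741 for DDIT3; SD, n = 3). Mean TPM placed it slightly below, as did counts scaled to the library total alone. The reference genes were no fixed scale between lines, with a mean B2M level at 25 mM of 656 TPM in HU-HSA-2 against 156 TPM in HU-HSA-3. The identifier given for the ribosomal protein gene RPL32 held a mean of only 0.80 against 4.27 TPM, and that it measures RPL32 could not be checked. Over 24 alternative settings the log2 fold change ran from -0.13 to 0.26 for ATF4 and from -0.18 to 0.18 for DDIT3. For ATF4, 2 of these settings passed the threshold, in opposite directions: library totals alone gave -0.13 (adjusted p = 0.0468) and removal of a gene-length trend gave 0.26 (adjusted p = 0.000263), where the largest adjusted p over the 24 settings was 0.948. Both settings moved the median of all genes, by -0.19 and 0.19, and relative to that median ATF4 was at 0.09 in each.

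Without glucose, both genes were higher in HU-HSA-3 than HU-HSA-2. The log2 fold change was 1.40 for ATF4, or 2.64-fold (SE 0.06; 95% interval 1.27 to 1.53; adjusted p = 3.71e-12, edgeR's quasi-likelihood test). For DDIT3 it was 2.47, or 5.53-fold (SE 0.08; 95% interval 2.30 to 2.64; adjusted p = 7.61e-14 in the same test). Thus both genes passed, in a comparison in which 73.2% of genes did, 36.1% higher in HU-HSA-3 and 37.1% lower. The lines differed so widely at 0 mM that 661 genes had a larger difference in this direction than ATF4, and 267 had a larger one than DDIT3. Across the 24 alternatives the difference stayed past the threshold, between 1.16 and 1.58 for ATF4 and between 2.25 and 2.56 for DDIT3. Without replicate 1 of HU-HSA-3 at 0 mM, the library that stood apart, the values were 1.34 and 2.43.

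The glucose response within each line was the base of this contrast. In HU-HSA-3, ATF4 was higher without glucose by 1.13 on the log2 scale (SE 0.08, adjusted p = 4.08e-05) and DDIT3 by 2.91 (SE 0.10, adjusted p = 2.77e-07; edgeR's quasi-likelihood test). Both rose where 5.65% of the 11089 genes tested were called, 3.61% higher and 2.04% lower. Among all genes tested, called or not, 6 had a larger positive fold change than DDIT3 and 99 a larger one than ATF4. In HU-HSA-2 both genes were called too, but in opposite directions: ATF4 fell by 0.22 (SE 0.04, adjusted p = 0.00413) and DDIT3 rose by 0.45 (SE 0.08, adjusted p = 0.00250; edgeR's quasi-likelihood test). There, 13.2% of 12035 genes were called, 5.7% lower and 7.45% higher. These HU-HSA-2 changes were modest beside those of other genes in the line, where 1764 genes had a larger negative fold change than ATF4 and 794 a larger positive one than DDIT3. They are changes at 48 h, and by RT-qPCR the study placed the peak of stress-response genes in HU-HSA-2 earlier than that. Leaving out replicate 1 of HU-HSA-3 at 0 mM gave 1.07 for ATF4 and 2.87 for DDIT3 in HU-HSA-3, where the count of called genes rose from 626 to 2027. Leaving out any other HU-HSA-3 library lowered that count, to between 231 and 431, and in HU-HSA-2 the count of 1583 ran from 906 to 1570, while both genes kept their calls in each of these fits.

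The difference between the responses was tested directly. The response of HU-HSA-3 exceeded that of HU-HSA-2 by 1.34 for ATF4 (SE 0.09; 95% interval 1.16 to 1.53; adjusted p = 3.14e-08) and by 2.45 for DDIT3 (SE 0.12; 95% interval 2.20 to 2.71; adjusted p = 1.07e-09; edgeR's quasi-likelihood test). Both genes were among the 4.73% of genes called in this test, which split into 2.43% with a higher and 2.31% with a lower response in HU-HSA-3. Without replicate 1 of HU-HSA-3 at 0 mM the differences were 1.28 and 2.42. For DDIT3, 56 genes had a larger positive difference, and for ATF4 219 did. By construction this value is the line difference at 0 mM less the line difference at 25 mM. In the reported setting the line difference at 25 mM was 0.06 for ATF4 and 0.01 for DDIT3, so the value lay close to the line difference at 0 mM. Under the alternatives the line difference at 25 mM ran from -0.13 to 0.26 for ATF4 and from -0.18 to 0.18 for DDIT3.

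**Figure D2:**
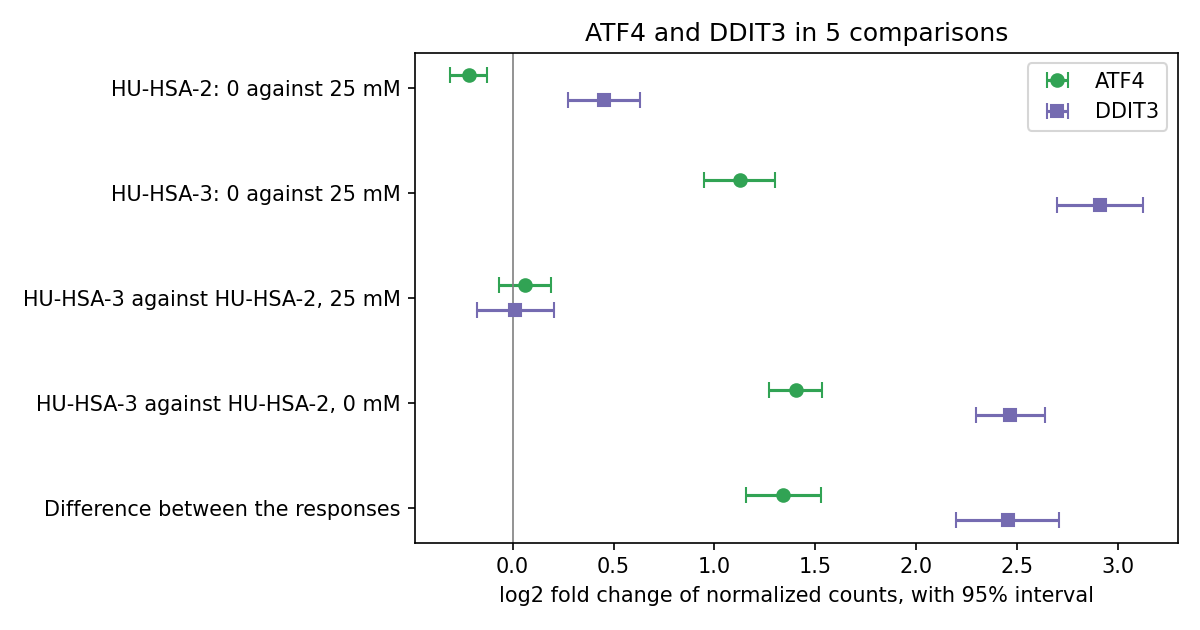
Log2 fold changes of ATF4 and DDIT3 in normalised counts for 5 comparisons, with 95% intervals as bars and 3 libraries per group. The intervals include 0 for both genes in the comparison of lines at 25 mM, whereas at 0 mM the values are 1.40 for ATF4 and 2.47 for DDIT3.

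The 4 group means of each gene were then placed in order. By TPM, ATF4 was lowest in HU-HSA-2 at 0 mM, followed by HU-HSA-3 at 25 mM, HU-HSA-2 at 25 mM and HU-HSA-3 at 0 mM. Neighbours in the middle of this order, the lines at 25 mM, could not be separated, and TMM-normalised CPM exchanged their places, whereas library totals alone kept the order of TPM. HU-HSA-3 at 25 mM was 0.28 above HU-HSA-2 at 0 mM on the log2 scale (SE 0.06, adjusted p = 0.000694, edgeR's quasi-likelihood test). With library totals alone that step was 0.11 and missed the threshold (adjusted p = 0.0926, the highest over 23 alternatives), and by TPM the libraries of these groups overlapped. HU-HSA-3 at 0 mM was 1.19 above HU-HSA-2 at 25 mM (SE 0.06, adjusted p = 2.92e-11). In these diagonal comparisons, which change line and glucose together, 74.4% of genes were called in the first (35.8% higher and 38.6% lower) and 73.4% in the second (36.1% higher and 37.3% lower).

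For DDIT3 the order by TPM was HU-HSA-3 at 25 mM, HU-HSA-2 at 25 mM, HU-HSA-2 at 0 mM and HU-HSA-3 at 0 mM. The first pair could not be separated, and TMM-normalised CPM exchanged those places as well, again with no exchange under library totals alone. The further steps were the rise of 0.45 in HU-HSA-2 and the line difference of 2.47 at 0 mM, each past the threshold. HU-HSA-3 at 25 mM was also below HU-HSA-2 at 0 mM, by a log2 fold change of -0.44 (SE 0.09, adjusted p = 0.000243, edgeR's quasi-likelihood test). Thus the groups without glucose held the higher DDIT3 levels in both lines, whereas the groups without glucose held both the lowest and the highest ATF4 level.

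DDIT3 mRNA was also set against ATF4 mRNA inside each library, since this ratio does not depend on how libraries are scaled. With glucose, DDIT3 TPM was 6.75, 6.94 and 6.69% of ATF4 TPM in HU-HSA-2 (6.80 ± 0.132, SD, n = 3) and 6.81, 6.69 and 7.04% in HU-HSA-3 (6.84 ± 0.178). Without glucose it was 10.7, 10.8 and 10.9% in HU-HSA-2 (10.8 ± 0.0787), against 22.3, 25.0 and 22.5% in HU-HSA-3 (23.3 ± 1.5). The ratio was therefore alike in the 6 libraries with glucose, higher in HU-HSA-2 without it and highest in HU-HSA-3 without it, with no overlap between these 3 sets. The ratio was 1.59-fold higher without glucose in HU-HSA-2, against 3.40-fold in HU-HSA-3, and at 0 mM it was 2.15-fold higher in HU-HSA-3 than HU-HSA-2. Each of these comparisons gave p = 0.1 in an exact two-sided permutation test (0.133 after Benjamini-Hochberg adjustment over 4 comparisons), which is the smallest p that 3 against 3 libraries can give. The lines at 25 mM differed by 1.01-fold in this ratio (exact permutation p = 0.7).

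**Figure D3:**
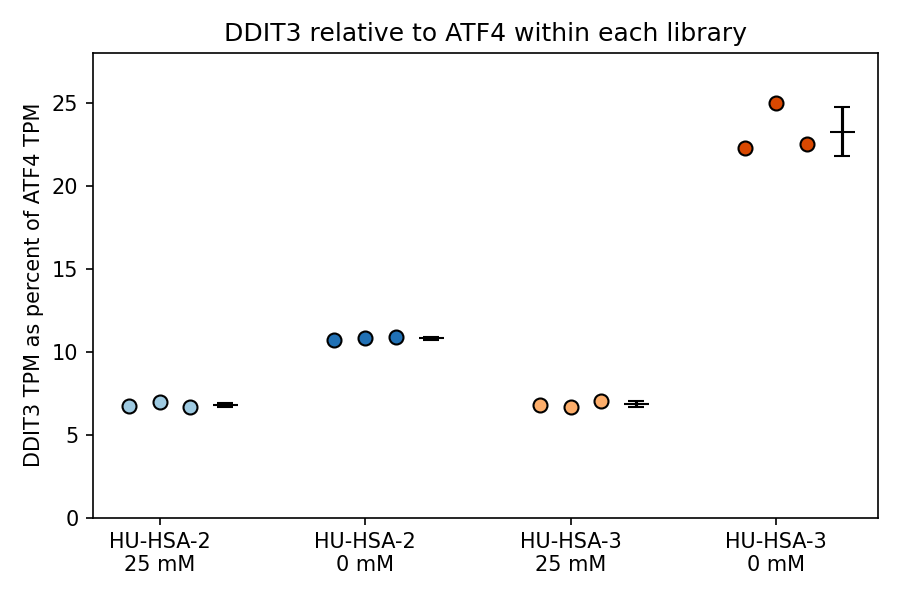
DDIT3 TPM as a percent of ATF4 TPM in each of the 12 libraries, with the mean ± SD of 3 libraries beside each group on an axis that starts at 0. The libraries with glucose sit between 6.69 and 7.04% in both lines, those of HU-HSA-2 at 0 mM near 10.8% and those of HU-HSA-3 at 0 mM between 22.3 and 25.0%.

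Other genes of the pathway were taken from a list of 7 genes that ATF4 is known to regulate. The list was drawn from genes that the study had chosen to measure by RT-qPCR, so its direction is not independent evidence. At 25 mM, 5 of the 7 were lower in HU-HSA-3 than HU-HSA-2, 1 was higher and 1 was not past the threshold, with a median log2 fold change of -0.49 against -0.03 over all genes tested. That is 6 called genes of 7, where 74.3% of all genes were called. CHAC1, an enzyme that degrades glutathione, was lower by -3.18 and the cystine transporter gene SLC7A11 by -1.79. PYCR1, of proline synthesis, was at -1.22, the mitochondrial folate enzyme gene MTHFD2 at -0.49 and the asparagine synthetase gene ASNS, which lost its call once a gene-length trend was removed (-0.10), at -0.34 (SE 0.06 to 0.23 over these 5 genes; adjusted p at most 0.000118, edgeR's quasi-likelihood test). ALDH18A1, which acts earlier in proline synthesis, was higher by 0.96, and SESN2, a stress-inducible inhibitor of mTORC1 signalling, was at -0.19 and did not pass (adjusted p = 0.446), with its sign turned to 0.05 once a gene-length trend was removed.

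At 0 mM, 6 of the 7 listed genes were higher in HU-HSA-3 and 1 was lower, with a median of 1.19 against -0.01 over all genes, of which 73.2% were called, 36.1% higher and 37.1% lower. SESN2 was higher by 2.71, CHAC1 by 1.67, ASNS by 1.25, SLC7A11 by 1.19, ALDH18A1 by 0.76 and MTHFD2 by 0.51, whereas PYCR1 was at -0.53 (SE 0.05 to 0.18 over the 7 genes; adjusted p at most 7.76e-06, edgeR's quasi-likelihood test). Of these, ASNS, SLC7A11, CHAC1 and MTHFD2, were thus called lower in HU-HSA-3 with glucose and higher without it. As for the glucose responses, 6 of the 7 rose in HU-HSA-3 and ALDH18A1 did not pass (0.05; adjusted p = 0.671, edgeR's quasi-likelihood test), with values from -0.09 to 0.06 under other scalings. Of all genes, 5.65% were called in that line, 3.61% higher. In HU-HSA-2, 1 rose, 2 fell and 4 did not pass, and the 2 that fell, ASNS at -0.68 and CHAC1 at -0.44, moved with ATF4 and against DDIT3. The riser was ALDH18A1 at 0.25, and of all genes 13.2% were called there, 7.45% higher and 5.7% lower. These calls changed under some alternatives: CHAC1 lost its call without replicate 2 at 25 mM (-0.39, adjusted p = 0.0684), ALDH18A1 lost its call with the reference genes (0.18, adjusted p = 0.0778), and PYCR1, at -0.18 and not past the threshold as reported, gained a call under 3 alternatives. The difference between responses was called for 6 of the 7, with a median of 1.59 against 0.01 over all genes, of which 4.73% were called, 2.43% higher.

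In TPM, the mean level of ASNS was 132 and 80.8 in HU-HSA-2 with and without glucose, against 91.3 and 162 in HU-HSA-3. CHAC1 was at 43.9 and 31.9 TPM in HU-HSA-2, against 4.40 and 87.1 TPM in HU-HSA-3. ATF4 thus differed from its listed target CHAC1 in starting level: ATF4 in HU-HSA-3 rose from about the level of HU-HSA-2, CHAC1 from well below it. SESN2 resembled DDIT3 in this respect, with 4.02 and 3.30 TPM in HU-HSA-2, against 3.05 and 18.3 TPM in HU-HSA-3.

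**Figure D4:**
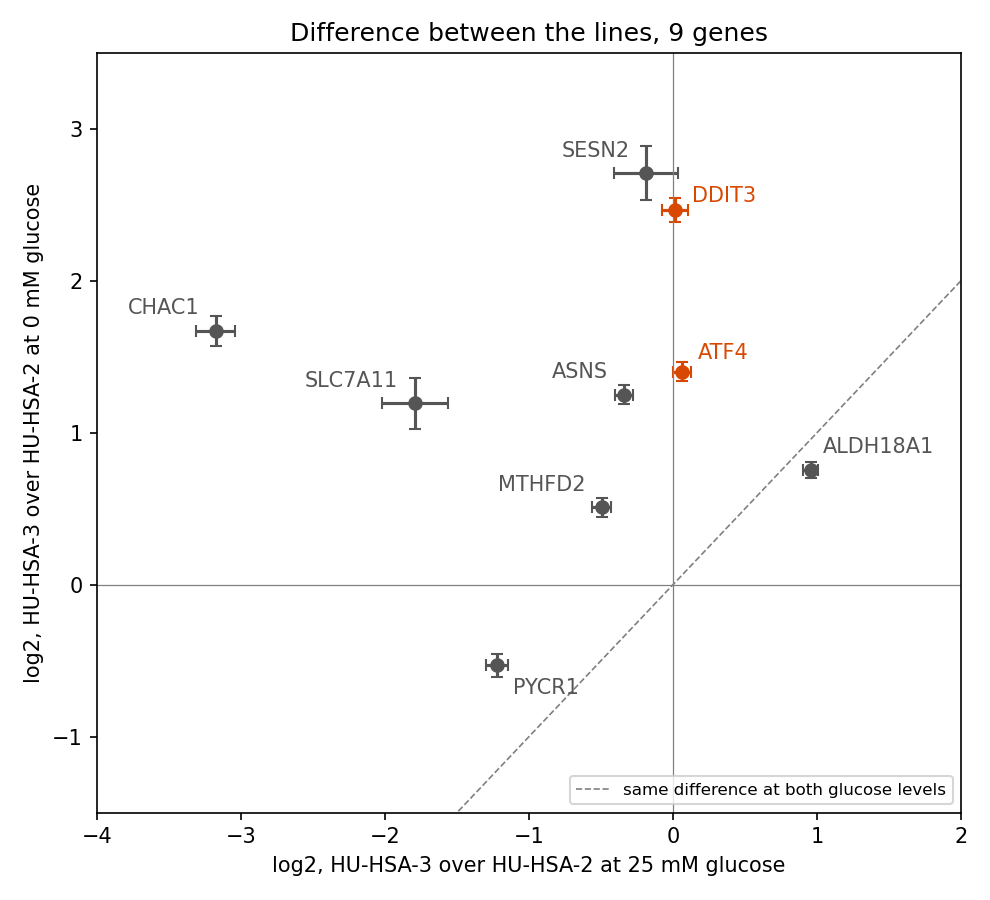
Log2 fold change of HU-HSA-3 over HU-HSA-2 at 25 mM glucose (horizontal) and at 0 mM glucose (vertical) for ATF4, DDIT3 and the 7 listed target genes, with points above the dashed line where HU-HSA-3 is relatively higher without glucose. ATF4 and DDIT3 lie at 0.06 and 0.01 on the horizontal axis and at 1.40 and 2.47 on the vertical axis.

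Likeness over the 12 libraries was described by Pearson's r of log2 normalised CPM among 11539 other genes with a mean of at least 1 CPM. ATF4 and DDIT3 had r = 0.94 with each other but a Spearman rho of 0.42. The 3 libraries of HU-HSA-3 at 0 mM lay far from the rest in both genes, while in HU-HSA-2 ATF4 and DDIT3 moved in opposite directions. DDIT3 was 15th by r among the genes most like ATF4, and ATF4 was 20th among those most like DDIT3. SESN2 was close to both, with r = 0.97 to ATF4 and r = 0.96 to DDIT3. ASNS, which fell in HU-HSA-2, had r = 0.91 with ATF4 and r = 0.77 with DDIT3. The other listed genes were at r = 0.74 for MTHFD2, 0.65 for ALDH18A1, 0.59 for SLC7A11, 0.56 for CHAC1 and -0.31 for PYCR1 with ATF4, and at 0.83, 0.56, 0.76, 0.69 and -0.16 with DDIT3. Ranks gave lower values for most of these pairs, with a Spearman rho for SESN2 of 0.77 to ATF4 and 0.60 to DDIT3, and for ASNS of 0.78 and 0.25. In all, 46 genes had r above 0.9 with ATF4 and 38 with DDIT3. As libraries of a group share line and medium, these values describe the 4 groups more than 12 independent points.

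The gene nearest to ATF4 was ENSCAFG00000005480 (r = 0.98), with mean normalised CPM of 69.9 and 66.7 in HU-HSA-2, against 74.0 and 112 in HU-HSA-3, with and without glucose. The gene nearest to DDIT3 was ENSCAFG00000010269 (r = 0.996), at 166, 195, 170 and 479 in the same order. Both were chosen for this likeness, so their levels are a description. At the other end, ENSCAFG00000009425 ran opposite to ATF4 (r = -0.99) and ENSCAFG00000018381 ran opposite to DDIT3 (r = -0.98). The symbols of these 4 genes are not given here, since the files do not pair them with names.

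Both genes lie on chromosome 10 in the RefSeq annotation of the dog assembly UU_Cfam_GSD_1.0, which is not the CanFam3.1 build of the files and served only to find neighbours. ATF4 lies there between RPS19BP1 and MIEF1 and overlaps no other gene. DDIT3 overlaps MARS1 and MBD6, and the strand setting used in counting is not given in the sources used here. Reads from the overlapping ends could therefore be shared among these genes. Every expected count of DDIT3, like every one of ATF4, was a whole number, as were 97.7% of all expected counts. Whether reads were shared was not tested.

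**Figure D5:**
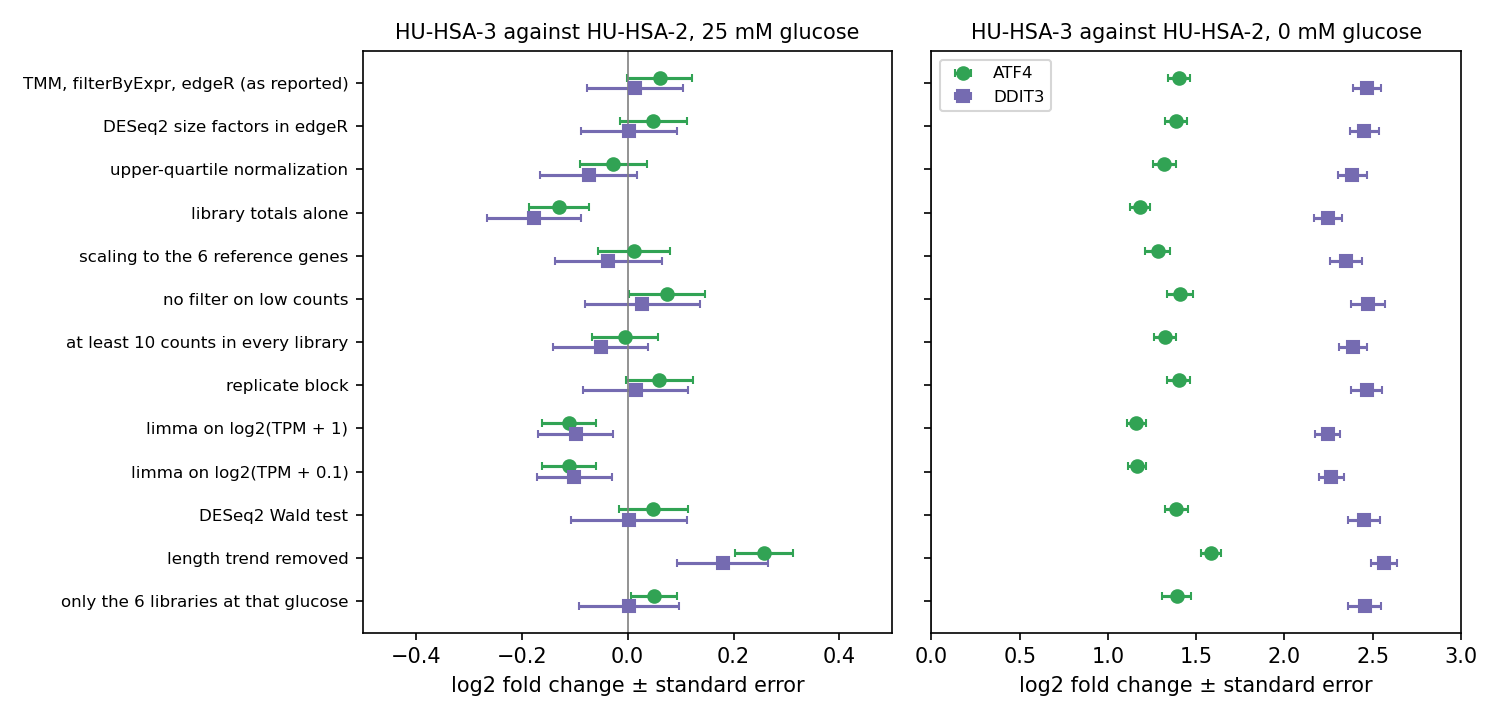
Log2 fold change ± standard error of ATF4 and DDIT3 between the lines at 25 mM and at 0 mM under the reported setting and its alternatives. At 25 mM the values scatter around 0, from -0.18 to 0.26, and at 0 mM they lie between 1.16 and 1.58 for ATF4 and between 2.25 and 2.56 for DDIT3.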

How the data were processed

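Total RNA of 12 cultures (HU-HSA-2 and HU-HSA-3, 0 or 25 mM glucose, triplicate) was made into poly(A)-selected, directional libraries by the authors. The sources used here describe cultures in triplicate, so p-values measure the spread between cultures of 1 line, not between dogs. The authors aligned reads to CanFam3.1 with STAR and quantified genes with RSEM, and the submitters' processing notes also list edgeR 3.42.0. The deposited tables hold the authors' expected counts (97.7% whole numbers) and TPM per gene. TPM divides by transcript length and library total, which fixes each library's sum. The strand setting of counting is not given in the sources used here.

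Expected counts were rounded. edgeR 4.0.16 (R 4.3.3) filtered low genes (filterByExpr), normalised by TMM and applied its quasi-likelihood test with Benjamini-Hochberg adjustment over all genes tested, at a threshold of 0.05. Glucose responses were fitted on the 6 libraries of each line. Line differences, the difference between responses and the diagonal comparisons were fitted on all 12, so these comparisons share libraries with each other. Standard errors come from the unshrunken log2 fold change and its F statistic, and 95% intervals from the matching degrees of freedom. Ratios of DDIT3 to ATF4 TPM were compared by exact permutation tests. Likeness used log2 TMM-normalised CPM (prior count 2) and has no test.

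The alternatives were other scalings (upper quartile, library totals, 6 reference genes), other filters, DESeq2 1.42.0, limma 3.58.1 on log2(TPM + 1) and log2(TPM + 0.1), removal of a gene-length trend, a replicate block, other sets of libraries and leaving out each library. The fits were tested on simulated data. Members and lists were chosen with earlier results of these data known. The genes named are ATF4, DDIT3, the 7 genes ATF4 is known to regulate that have an identifier in the study's primer table, and the gene with the highest and the gene with the lowest correlation to each of ATF4 and DDIT3. PECAM1, KDR and VWF served as endothelial markers. None of the identifiers matched the RefSeq gene table, so neighbours were looked up by symbol.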

Additional observations from a re-analysis of the deposited data

Results flagged for a closer look

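The difference between the glucose responses of the lines, HU-HSA-3 less HU-HSA-2 on the log2 scale, was tested directly and passed the threshold for ATF4 (1.34) and DDIT3 (2.45) in edgeR's quasi-likelihood test. It also passed for 6 of the 7 listed target genes, namely CHAC1 (4.85), SLC7A11 (2.99), SESN2 (2.90), ASNS (1.59), MTHFD2 (1.002) and PYCR1 (0.69). Of all genes, 4.73% were called in this test, 2.43% in this direction. For ATF4 the responses had opposite signs, -0.22 in HU-HSA-2 against 1.13 in HU-HSA-3. For DDIT3 they had the same sign, 0.45 and 2.91. These signs hold for 48 h alone. By RT-qPCR the study placed the peak of stress-response genes in HU-HSA-2 earlier than that.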

How the results depend on the processing

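For ATF4 and DDIT3, the line difference at 0 mM, the glucose responses and their difference kept direction and call under every alternative. At 25 mM the signs changed. ATF4 (0.06) became -0.027 by upper-quartile scaling, -0.13 by library totals (adjusted p = 0.0468), -0.0047 with at least 10 counts in every library and -0.11 by limma with either pseudocount, and was called at 0.26 without the length trend. DDIT3 (0.01) became -0.074, -0.18 and -0.051 under the first 3 of these, -0.037 with the reference genes, which differed between lines themselves, and -0.10 by limma, and leaving out a library gave -0.0085 to 0.075. At 25 mM the median of all genes moved by -0.19 with library totals, -0.13 and -0.15 by limma and 0.19 without the length trend, and at 0 mM by -0.22, -0.20, -0.22 and 0.19, by -0.12 with reference genes and by -0.10 with no filter. Where it moved by 0.10 or more, ATF4 lay 0.05 to 0.09 and DDIT3 0.01 to 0.08 above that median at 25 mM, and 1.37 to 1.53 and 2.38 to 2.59 at 0 mM. With at least 10 counts, DDIT3 lay below it at 25 mM. Higher against lower calls at 25 mM were 4422 and 4669 as reported, 3319 and 5710 with library totals, 3304 and 5250 or 3284 and 5206 by limma and 5554 and 3817 without the length trend. At 0 mM they were 4412 and 4540, then 3143 and 5755, 2935 and 5485, 2913 and 5457, and 5657 and 3687. ATF4 in HU-HSA-3 at 25 mM against HU-HSA-2 at 0 mM lost its call with library totals (0.11). The DDIT3 to ATF4 ratio between lines at 25 mM turned to -0.047 in log2 with counts, and ran from -0.0102 to 0.0266 with a library left out.

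Called genes in HU-HSA-2 (1583) were 870 and 845 by limma and 906 to 1570 with a library left out, lowest without replicate 3 (906) or 2 (920) at 25 mM. Those of HU-HSA-3 (626, with 400 higher and 226 lower) were 1043 with reference genes (232 higher, 811 lower), which moved the median by -0.13, then 384 and 366 by limma, 1037 without the length trend and 1153 with all 12 libraries. Leaving out a library there gave 231 to 2027: 236, 256 and 231 without replicates 1, 2 and 3 at 25 mM, and 2027 and 318 without replicates 1 and 2 at 0 mM. The difference between responses (579) was called for 370 genes by limma on log2(TPM + 0.1) and 386 to 852 with a library left out. The causes were not tested. Correlations moved to -0.92 on log2(TPM + 1) for the gene opposite to ATF4, and by Spearman to 0.93 and -0.83 for those nearest and opposite to DDIT3.

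Of 749 values of the 7 listed genes, 738 kept direction and call. In HU-HSA-2 CHAC1 and ALDH18A1 each lost a call once and PYCR1 gained 3, and ASNS lost 1 between lines at 25 mM (length trend). 5 turned: ALDH18A1 in HU-HSA-3 (0.05) at -0.0019 with library totals, -0.087 with reference genes and -0.031 and -0.032 by limma, and SESN2 between lines at 25 mM (-0.19) at 0.049. Replicate numbers did not pair the samples (correlations -0.05 to 0.13). With the replicate block all 59 values kept direction and call, with 1452 called genes in HU-HSA-2, 713 in the other line and 502 for the difference. DDIT3 at 25 mM rests on 199 to 306 counts.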
